A study of Mus musculus with 12 samples.

Results

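Antisense long noncoding RNAs (lncRNAs) that are transcribed from the strand opposite a protein-coding gene were examined in mouse liver together with the coding genes that they overlap. The members were all assembled loci whose gene carries the Ensembl biotype antisense, without the small nucleolar RNA host genes (names starting with Snhg, and Gas5, Zfas1 and Epb41l4aos), which left 2320 of 2322 antisense loci among 66468 loci in all. These loci belonged to 2205 genes. Of these, 1916 genes overlapped at least 1 protein-coding gene on the other strand, which gave 2049 gene pairs with 1834 coding genes, and 289 genes overlapped none.

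Livers came from wild-type male mice of 17 weeks on a control diet, labelled C57BL/6 and given as C57BL/6N in the study's methods. The 3 groups were ad libitum fed (AL), fasted for 16 h (FA), and fasted for 16 h and then refed for 6 h (RF), with 4 libraries each. Ribosomal RNA was depleted before strand-marked libraries were sequenced, so transcripts with and without a poly(A) tail were measured. Levels are FPKM, fragments normalised to transcript length and library size, with 1 pooled value per group. The values carried no replicate spread, so differences are given as ratios without error, test or p-value, and the depth behind each value is unknown. AL and FA were compared per locus, whereas FA and RF were compared for 1 transcript of each locus. For this reason RF was set beside AL only where the FA values of both comparisons agreed within 10%.

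Antisense lncRNAs may start near a coding gene's own start and run away from it across its promoter (head to head), meet it at the ends (tail to tail) or lie inside it. Some regulate the overlapped gene in cis, as Airn does when it silences Igf2r on the paternal chromosome, and others are thought to be by-products of an open promoter. In the fasted liver, glucagon and glucocorticoids raise genes of fat oxidation, gluconeogenesis and stress protection, while insulin after refeeding raises the genes of glycolysis and of lipid and sterol synthesis. An antisense gene lying in such a gene may or may not follow it. Of the 2049 pairs, 1122 had the antisense gene within the coding gene, 511 were head to head, 312 tail to tail, and in 104 the coding gene lay within the antisense gene. Exons of both genes overlapped in 1218 pairs and did not in 819, in the GENCODE annotation of the same genome build.

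Upstream sequences are shown for the pairs with the largest ratios whose starts lay within 1000 bases of each other head to head, and for Lss, the coding gene of the antisense locus with the lowest FA/AL ratio at a mean of 1 FPKM or more, which was added after its values were seen. They are RefSeq windows on build GRCm38.p6 that run 5′ to 3′ up to the base before the start of the named gene, except that the Elovl6 window stops before annotated untranslated sequence. Capitals mark matches on either strand to the core of the metal response element, TGCNCNC, which was searched together with the E-box CACGTG, the sterol regulatory element TCACNCCAC and the cAMP response element TGACGTCA. Starts of the windows are those of RefSeq and distances between genes are those of Ensembl, whose starts can differ. The Mt2 window is chr8:94172368-94172617 on the plus strand, and RP23-98C9.5 starts 748 bases downstream of the Mt2 start and is transcribed back across it. The Elovl6 window is chr3:129532136-129532354 on the plus strand, and Gm35986 starts 33 bases from the Elovl6 start, so that both genes share 34 bases. The Gm11695 window is chr11:115463715-115463964 on the minus strand, within the body of Slc16a5. The Lss window is chr10:76531355-76531604 on the plus strand.
Mt2: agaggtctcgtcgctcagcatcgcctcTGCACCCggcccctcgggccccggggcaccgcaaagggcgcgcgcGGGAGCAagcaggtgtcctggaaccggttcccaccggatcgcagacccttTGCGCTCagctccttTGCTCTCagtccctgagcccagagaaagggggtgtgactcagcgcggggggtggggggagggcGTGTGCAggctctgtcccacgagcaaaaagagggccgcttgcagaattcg
Elovl6: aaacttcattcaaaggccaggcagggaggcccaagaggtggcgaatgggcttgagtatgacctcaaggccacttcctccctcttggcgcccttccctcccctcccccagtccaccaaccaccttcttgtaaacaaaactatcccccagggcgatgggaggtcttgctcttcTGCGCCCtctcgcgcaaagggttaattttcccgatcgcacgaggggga
Gm11695: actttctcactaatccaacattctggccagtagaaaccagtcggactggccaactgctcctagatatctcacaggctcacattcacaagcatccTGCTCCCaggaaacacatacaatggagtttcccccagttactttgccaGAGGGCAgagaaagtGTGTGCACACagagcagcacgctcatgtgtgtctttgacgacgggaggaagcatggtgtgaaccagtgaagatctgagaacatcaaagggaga
Lss: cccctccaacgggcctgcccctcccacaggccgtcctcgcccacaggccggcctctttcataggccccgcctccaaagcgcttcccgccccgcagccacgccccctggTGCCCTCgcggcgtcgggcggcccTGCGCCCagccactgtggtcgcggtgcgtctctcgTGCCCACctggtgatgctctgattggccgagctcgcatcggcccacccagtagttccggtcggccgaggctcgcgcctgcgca

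The Mt2 window held 5 matches to the metal response core, at 223, 178, 128, 113 and 50 bases before the start. At least 1 match was found in 44.4% of all 32851 RefSeq windows of 250 bases, and 5 or more were found in 0.344%. The Elovl6 window held 1 match, the Lss window 3, and the Gm11695 window 4, of which 2 overlapped each other. None of these sequences held the E-box, found in 6.02% of all windows, the sterol element, found in 1.05%, or the cAMP element, found in 1.55%. The matches describe letters only.

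Liver identity and the members' levels were checked first. The 8 hepatocyte markers summed to 6718 FPKM in AL and 7632 in FA, with albumin listed at 0. Without Cyp2e1, a cytochrome P450, the sum was 5687 in AL and 4978 in FA, so 1 gene set its direction. By contrast, the 6 lymphocyte markers summed to 0.829 and 0.861. Sums of the other lists were 34.1 and 28.1 for 8 Kupffer cell markers, 42.8 and 37.2 for 7 endothelial markers, 62.6 and 54.3 for 8 stellate cell and fibroblast markers, 7.29 and 5.51 for 5 cholangiocyte markers, and 758 and 562 for 5 erythroid markers. Their part in the ratios below was not tested, and in whole liver fewer cells of a type and less RNA per cell cannot be told apart.

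Most antisense loci had too few fragments to be compared. For AL and FA, 1554 loci were marked as too sparse to be compared and 1 as failed, and 740 of the members were listed at 0 in both groups, which cannot be read as absence since albumin is also listed at 0. The other 765 were comparable, and 592 of these had a mean of 0.5 FPKM or more and a value above 0 in both groups, which is 25.5% of the members. These 592 measured loci had a median level of 1.47 FPKM, with 384 at 1 FPKM or more, 57 at 10 or more and 11 at 100 or more. Of the 592, 538 lay on the strand of the antisense gene, inferred from the order of the locus numbers, and 54 lay on the opposite strand, which is that of the coding gene where one is overlapped. By the same inference, 36.9% of all 33379 loci of known strand listed above 0 lay opposite their gene, against 6.33% of the 1580 such members. An opposite-strand label is thus common in the data and rests on inference alone. No strand setting for the counting step was found in the labels or methods, so reads of a gene and its antisense partner cannot be told apart with certainty. Of the measured loci, 10 also, or only, carried the name of a coding gene, whose strand was not checked in this count.

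The most abundant loci were of this mixed kind in part. The locus of Gm16090 also named Ttr, transthyretin, and stood at 1362 FPKM in AL and 823 in FA. Ttr is the coding gene that Gm16090 overlaps on the other strand, so this value may be largely that of Ttr. The locus is still counted in the pairs below. Those of Gm17344, Gm11131 and Frmd8os likewise named the coding genes Tat, H2-Q10 and Slc25a45. Among loci naming the antisense gene alone, Sardhos, inside the sarcosine dehydrogenase gene Sardh, was the most abundant, at 203 FPKM in AL, 264 in FA and 244 in RF. Sardh itself stood at 186 in AL and 240 in FA. B430119L08Rik, which overlaps the alpha-1-antitrypsin gene Serpina1c, was nearly level at 139 in AL, 132 in FA and 139 in RF. Gm15622, inside Bhmt, which remethylates homocysteine with betaine, was at 87.1 in AL, 161 in FA and 90.6 in RF, so that FA stood above both fed groups. Bhmt was at 648 in AL and 1112 in FA. 1700045H11Rik, head to head with the Egfr inhibitor gene Errfi1, was at 83.7 in AL and 130 in FA, above Errfi1 itself at 25.6 and 37.1, although no exons of that pair overlap.

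Fasting was set against ad libitum feeding first. Of the 592 measured antisense loci, 35 were at least 2-fold higher in FA than in AL, or 5.91%, and 17 were at least 2-fold lower, or 2.87%. Among all 21933 measured loci the corresponding shares were 2.81% and 3.72%. The median log2 ratio of FA to AL was 0.08 for antisense loci and -0.02 for all loci. Intergenic lncRNA loci showed 6.63% higher and 5.19% lower of 347, and protein-coding loci 1.65% higher and 2.95% lower of 18187. The antisense share of higher loci was therefore nearer to that of other lncRNAs than to that of coding genes, without a test. The share of lower loci was nearer to that of coding genes. By level, the share of antisense loci higher in FA was 7.21% at 0.5 to 1 FPKM, 3.96% at 1 to 5 and 8.49% at 5 or more, against 4.58%, 2.02% and 2.52% of all loci. The share lower in FA was 2.40%, 2.16% and 5.66%, against 5.11%, 2.87% and 3.92%. The higher share thus exceeded that of all loci at each level, and the lower share did so only at 5 FPKM or more.

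**Figure D1:**
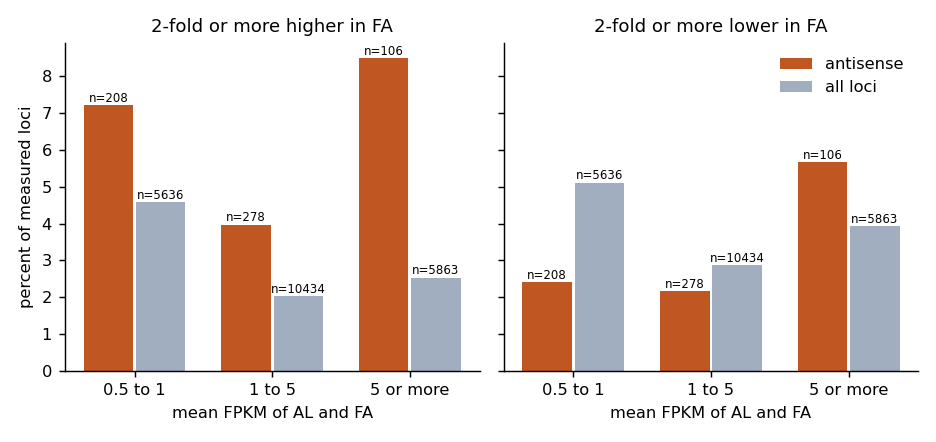
Share of measured loci (percent, y axis) at least 2-fold higher (left) or lower (right) in FA than in AL, by mean FPKM of both groups (x axis), for antisense loci and for all loci, with the number of loci above each bar. At 5 FPKM or more, 8.49% of 106 antisense loci were higher in FA, against 2.52% of 5863 loci.

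The lncRNA and its coding gene were then followed as a pair. Both were measured in 542 pairs of an antisense locus and a coding gene, made up of 468 antisense and 482 coding genes. In AL the median level of the antisense locus was 0.322 times that of the coding gene, and it was 0.365 times in FA. The antisense locus was the more abundant in 122 pairs (22.5%) in AL and in 128 pairs (23.6%) in FA. The log2 ratios of FA to AL differed between the members of a pair by a median of 0.21, and by no more than 0.5 in 437 pairs (80.6%). The signs were the same in 387 pairs (71.4%).

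Across the 542 pairs the log2 ratios of FA to AL had a Spearman correlation of 0.56 and a Pearson correlation of 0.70. These are descriptions across pairs, which share the same pooled libraries and, in part, the same coding gene. For comparison, 299 measured loci assigned to 150 of these coding genes lay on the strand opposite the gene. Their log2 ratios had a Spearman correlation of 0.48 with those of the gene's own-strand locus, against 0.56 for the pairs. The difference was not tested. Both members were 2-fold or more apart in the same direction in 21 pairs, and no pair had both members 2-fold or more apart in opposite directions. Of the 21, 18 had the antisense locus on its annotated strand and 3 on the strand of the coding gene. Gm14097 with 1110034G24Rik was counted once for each of its measured loci. Of the 42 pairs whose antisense locus passed 2-fold, the coding gene had the same sign in 38 and passed 2-fold in 21, while in 10 it differed by less than 1.2-fold. Of the 36 pairs whose coding gene passed 2-fold, the antisense locus had the same sign in 32 and passed 2-fold in 21.

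The likeness was greatest where more than 50% of the lncRNA exons was overlapped and where the antisense locus was abundant. It differed little among the classes with less overlap. Among loci on the annotated strand, the Spearman correlation was 0.54 for the 148 pairs with no exon overlap, 0.56 for the 164 with up to 25% of the lncRNA exons overlapped, 0.59 for the 80 with up to 50%, and 0.72 for the 104 with more. Over the same classes the median ratio of antisense to coding level in AL went from 0.186 to 0.323, 0.487 and 0.961. The 45 pairs whose antisense locus lay on the strand of the coding gene had a correlation of 0.22. By level, it was 0.81 for the 107 pairs with an antisense locus at 5 FPKM or more and 0.31 for the 182 pairs with one under 1 FPKM. By layout, it was 0.64 for 112 head to head pairs, 0.63 for 24 pairs with the coding gene inside, 0.55 for 126 tail to tail pairs and 0.53 for 280 pairs with the antisense gene inside. Pairs without shared exon bases held 4 of the 21 same-way pairs.

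**Figure D2:**
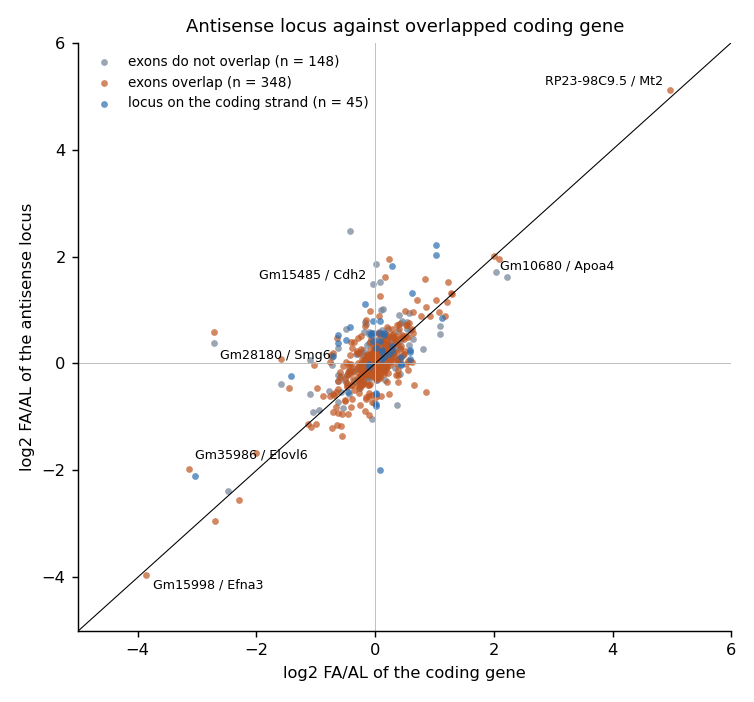
Log2 FA/AL of the antisense locus (y axis) against log2 FA/AL of the overlapped coding gene (x axis) for the 541 pairs with exon annotation, coloured by exon overlap and by strand of the locus, with the line of equal ratios. Most pairs lie near the line, the upper left and lower right corners are empty beyond 2-fold on both axes, and Gm28180 with Smg6 stands apart at 0.39 against -2.72.

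The pairs higher in FA included genes of metal binding, lipid transport, mitophagy and signalling. RP23-98C9.5 (chr8:94170748-94173412, minus strand) lies head to head with Mt2, a metallothionein that binds zinc and copper and is induced by glucocorticoids. It stood at 0.381 FPKM in AL and 13.2 in FA, and Mt2 at 2.84 and 89.4, which are log2 ratios of 5.11 and 4.97. These were the highest ratios of any pair, and exons shared 16.2% of the lncRNA. The Mt2 transcript, whose FA values matched, was at 2.00 in RF, back near its AL level. For RP23-98C9.5 another transcript was compared with RF, at 2.43 in FA and 0.079 in RF.

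Gm10680 (chr9:46242621-46243529, minus strand) lies tail to tail with Apoa4, an apolipoprotein of triglyceride-rich lipoproteins. The lncRNA was at 54.1 in AL, 217 in FA and 131 in RF, and Apoa4 at 8.41, 33.7 and 22.8. The locus assigned to the antisense gene thus had the higher value of the pair, by 6.43 times in AL and 6.45 times in FA. The ratio of the pair was nearly the same in both groups. Of the Gm10680 exon bases, 90.03% overlap Apoa4 exons, and reads of both genes cannot be told apart with certainty. RP24-285L8.3 (chr7:138890964-138894675, plus strand), inside Bnip3, a receptor for mitophagy, was at 81.0 in AL, 180 in FA and 157 in RF, and Bnip3 was at 55.4 and 128 in AL and FA. Here too 97.1% of the lncRNA exon bases overlap the coding exons.

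4933431G14Rik (chr6:72120213-72123197, minus strand), inside St3gal5, the gene of GM3 ganglioside synthase, shared no exon bases with it. It was at 5.01 in AL and 16.4 in FA, and St3gal5 at 9.21 and 37.6. C920021L13Rik spans Ciart, a repressor of the circadian clock, again with no shared exon, and was at 0.476 and 1.46 while Ciart was at 1.38 and 6.42. BC028528, the other coding gene that C920021L13Rik overlaps, stood at 0.483 in AL and 0.544 in FA, so the ratio of the antisense locus was nearer to that of Ciart.

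A further 4 pairs were also higher in FA. Ctcflos was at 0.623 and 2.41, and Ctcfl, a paralogue of the insulator protein CTCF, at 1.95 and 8.31. Gm16277 was at 17.4 and 43.0, and Gfra1, the co-receptor of the neurotrophic factor GDNF, at 11.4 and 27.7. Gm42809 was at 1.495 and 3.73, and Il6ra, the interleukin-6 receptor, at 1.23 and 3.005. Gm11695 was at 1.04 and 3.01, and Slc16a5, a monocarboxylate transporter, at 0.867 and 2.03. Coding exons overlap 62.8% of the exon bases of Gm16277, 25.6% of Gm11695, 21.3% of Gm42809 and 3.35% of Ctcflos.

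Gm14097 (chr2:132694432-132698523, minus strand) had 3 loci inside 1110034G24Rik, named Shld1 in RefSeq and a part of the shieldin complex of DNA repair. The locus on the antisense strand was at 2.005 in AL and 4.56 in FA, and the coding gene at 1.72 and 3.51. A first locus on the coding strand was at 3.76 in AL, 17.6 in FA and 4.73 in RF, and a second at 1.12, 4.59 and 0.616. Both coding-strand loci were higher in FA than in either fed group.

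The 9 pairs lower in FA included 3 whose coding gene belongs to the lists of sterol, fatty acid and triglyceride synthesis. 4930483K19Rik (chr10:76545871-76562226, minus strand) runs tail to tail into Lss, the lanosterol synthase of the cholesterol pathway. It was at 1.98 FPKM in AL, 0.258 in FA and 2.86 in RF, so that both fed groups stood far above FA. Lss was at 22.1 in AL and 3.41 in FA, and the log2 ratios of FA to AL were -2.94 and -2.69. Gm14493 (chrX:10717473-10718710, minus strand) lies entirely within exons of Mid1ip1, an activator of acetyl-CoA carboxylase polymerisation. Its locus was at 24.4 in AL, 4.17 in FA and 26.2 in RF, against 2.75 and 0.562 for Mid1ip1 in AL and FA. The value was thus 8.88 times that of the coding gene in AL, though reads of both genes cannot be told apart with certainty.

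Gm35986 (chr3:129527467-129532388, minus strand), which shares 34 bases with Elovl6, the elongase that makes stearate from palmitate, was at 4.06 and 1.03, and Elovl6 at 10.4 and 1.18. The coding gene was thus the further apart, by a log2 difference of 1.16. Gm43500 (chr5:135122410-135123293, minus strand) lies in Mlxipl, which encodes the glucose-responsive factor ChREBP. It was at 9.61 in AL, 4.38 in FA and 10.02 in RF, with Mlxipl at 23.9 and 11.97 in AL and FA, just under 2-fold.

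A further 5 pairs lower in FA lay over genes of other kinds. Gm42413 was at 92.3 and 40.6, and Qdpr, which regenerates tetrahydrobiopterin, at 116 and 55.2. Gm15962 was at 13.8 and 4.33, and Keg1 at 66.0 and 16.4. 4930533B01Rik, without exon overlap, was at 2.48 and 0.472, and Fmn1, an actin-nucleating formin, at 2.19 and 0.396. 4930534D22Rik was at 6.995 and 3.19, and Cyp2u1, a cytochrome P450 that hydroxylates fatty acids, at 4.64 and 2.13. Gm15998 was at 0.957 and 0.0616, and Efna3, an ephrin ligand, at 3.13 and 0.215, the lowest ratios of any pair. Coding exons overlap 98.2% of the exon bases of Gm42413, 55.9% of Gm15962, 20.2% of 4930534D22Rik and 18.7% of Gm15998. Values of the antisense loci may thus in part be those of the coding genes.

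**Figure D3:**
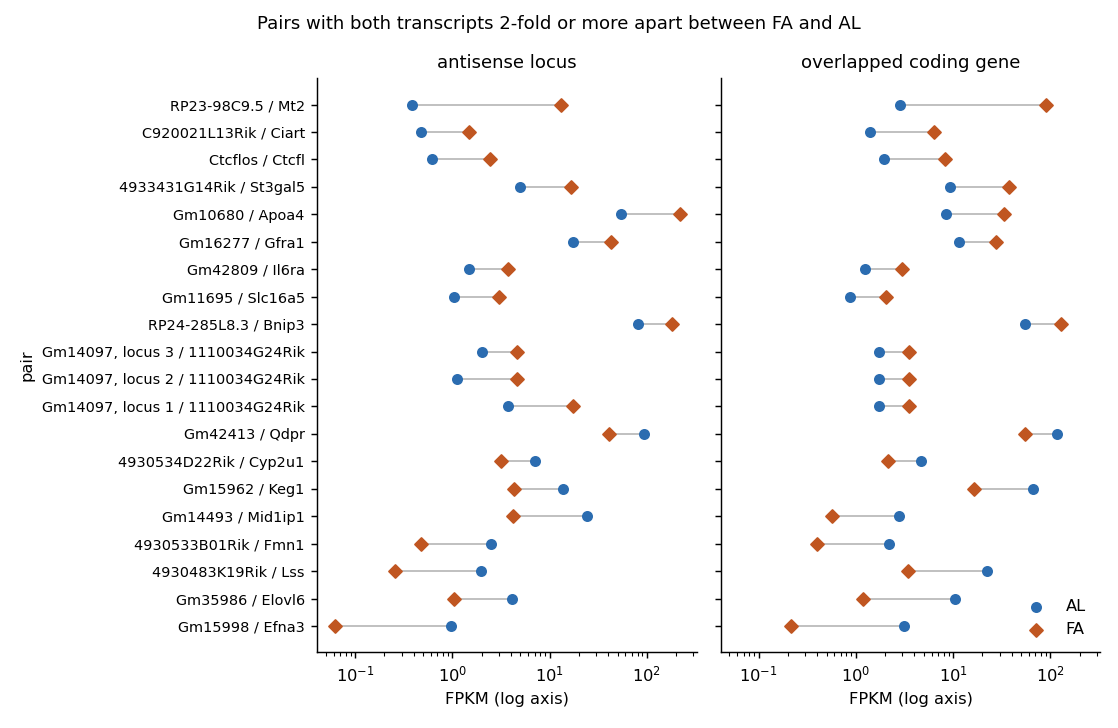
FPKM (log axis) in AL and FA of the antisense locus (left) and of the overlapped coding gene (right) for 20 of the 21 pairs in which both were 2-fold or more apart, ordered by the ratio of the coding gene. The order of AL and FA is the same on both sides in every pair shown, as the selection requires. The loci of Gm10680 and Gm14493 have higher values than those of Apoa4 and Mid1ip1.

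Pathway lists chosen for fasting and refeeding were read for their overlapped genes. Of 25 genes of fatty acid and triglyceride synthesis, 4 had an antisense gene and 3 were measured as pairs, those of Elovl6, Mid1ip1 and Mlxipl. All 3 antisense loci were at least 2-fold lower in FA, against 3.72% of all loci. Their median log2 ratio was -1.98, against -0.02 for all loci. Coding exons overlap 100% of the exon bases of Gm14493, 75.3% of Gm43500 and 4.32% of Gm35986, so these values may in part be those of the coding genes. Of 24 genes of cholesterol synthesis and uptake, Lss alone had an antisense gene. Of 28 genes of fatty acid oxidation and ketogenesis, 3 pairs were measured and no antisense locus passed 2-fold. Gm15441, which spans Txnip, an inhibitor of thioredoxin and of glucose uptake, was at 7.64 in AL and 15.0 in FA, with Txnip at 3.77 and 7.94. Gm16323 was at 0.433 and 0.848 inside the carnitine acetyltransferase gene Crat, at 8.38 and 13.1. Gm15743 was at 1.34 and 1.85 inside the ketone body enzyme gene Bdh1, at 36.1 and 45.5.

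In the lists of insulin and growth factor signalling, with 3 measured pairs, and of liver transcription factors, 1 antisense locus was 2-fold or more apart. Egfros was at 24.2 in AL and 13.3 in FA, and the epidermal growth factor receptor gene Egfr at 127 and 65.5. Igf1os was at 15.8 and 15.4, and Igf1 at 124 and 116. Gm16180 was at 0.748 and 1.29 inside the insulin receptor gene Insr, at 11.6 and 15.9. Of 27 liver transcription factor genes, 4 were measured in 7 pairs, and 1 antisense locus passed 2-fold. This was Tbx3os1, at 0.708 and 1.62, with Tbx3 at 1.87 and 3.05. Prox1os was at 4.51 and 7.41, with Prox1 at 2.76 and 3.94.

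Hnf4aos, head to head with the hepatocyte nuclear receptor gene Hnf4a, was at 1.52 in AL and 2.35 in FA on its own strand, and Hnf4a at 71.8 and 78.0. Its 3 loci on the Hnf4a strand were at 2.63, 1.18 and 3.42 in AL, at 2.79, 1.40 and 3.95 in FA, and at 3.52, 1.88 and 4.77 in RF. Gm43691 was at 2.77 and 3.28 inside Mttp, which loads lipid onto apolipoprotein B, at 53.7 and 55.8. Among lncRNAs described elsewhere, 14 of 33 listed were members and 7 passed the filter. Airn on its own strand was at 0.0435 FPKM in AL and 0.295 in FA, too low to compare. Loci assigned to Airn on the Igf2r strand were at 1.63 in both AL and FA, and at 1.44 and 1.37. Airn is transcribed from the other strand, so these may be reads of Igf2r and are not a measure of Airn. Kcnq1ot1 was at 0.139 and 0.132, too low to compare. Hotairm1 was at 0.148 and 2.32 in a locus that also names 4 other genes.

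Some pairs parted. In 28 of the 542 pairs (5.17%) the log2 ratios differed by 1 or more. Smg6, the endonuclease of nonsense-mediated decay, shares its locus with Tsr1 and was at 74.6 in AL and 11.3 in FA, while Gm28180 inside it was at 1.34 and 1.76 and Gm12333 at 0.449 and 0.672. Sox6os was at 0.173 in AL, 0.966 in FA and 0.391 in RF, while the transcription factor gene Sox6 was at 8.55 and 6.40. Gm15485 was at 0.945 and 2.66 inside Cdh2, the gene of N-cadherin, at 13.1 and 12.7. Gm13185 was at 0.266, 0.965 and 0.436 in AL, FA and RF, with Fam107b at 15.9 and 16.1 in AL and FA. Gm28836 had a locus at 5.28 and 5.54 tail to tail with the glutathione transferase gene Gsta3, at 834 and 389, while its second locus on the same strand was at 82.8 and 55.95, lower in FA like Gsta3, with a log2 ratio of -0.57. Of these 6 lncRNAs, only Gm12333 shared exon bases with its coding gene, at 4.38% of its exons.

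Refeeding was set against fasting. Of 455 measured antisense loci, 17 (3.74%) were at least 2-fold higher in RF than in FA and 27 (5.93%) at least 2-fold lower. Among all 14655 measured loci the shares were 4.19% and 3.79%. The median log2 ratio of RF to FA was -0.07 for antisense loci and -0.0013 for all loci. Beyond the members given above, the highest ratios included Gm17041, inside Cish, a suppressor of cytokine signalling, at 2.17 in AL, 1.13 in FA and 2.84 in RF. The lowest ratios included Gm15582, inside Lhpp, at 0.986, 1.66 and 0.355, and BB365896, inside Fam13a, at 1.92, 2.80 and 0.916.

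Few pairs could be followed into refeeding, since the transcript compared was often a minor one of its locus. Both members were measured in 121 pairs, with a Spearman correlation of 0.28 and a Pearson correlation of 0.60. Only 3 pairs passed 2-fold the same way, among them RP23-98C9.5 with Mt2 and Gm43500 with Mlxipl. None of the 3 had matching FA values for both members. The compared Mlxipl transcript was at 0.316 in FA and 0.897 in RF, far under its locus at 11.97 in FA. That of RP23-98C9.5 was at 2.43 in FA, against 13.2 for its locus. A single pair passed 2-fold in opposite ways, with Gm13185 at 0.965 in FA and 0.436 in RF and the compared Fam107b transcript at 1.05 and 2.28, far under its locus. Where the FA values matched for both members, 23 pairs remained, with a Spearman correlation of 0.74 and 18 of 23 pairs of the same sign. Of these, Gm10680 with Apoa4 was given above, and Gm37335 was at 33.05 in AL, 24.3 in FA and 31.3 in RF, with Hs6st1 at 0.870, 0.625 and 0.952. Hs6st1 exons cover 100% of the Gm37335 exon bases, so reads of both genes cannot be told apart with certainty. Gm29331 was at 4.91, 8.09 and 4.34, and the adenylyl cyclase gene Adcy6 at 1.28, 1.85 and 1.08.

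All 3 groups could be set side by side for 342 antisense loci with matching FA values. Of these, 10 (2.92%) were at least 2-fold higher in FA than in both AL and RF, and 6 (1.75%) at least 2-fold lower, against 1.68% and 1.73% of 11485 such loci in all. Of the 342, 292 lay on the strand of the antisense gene and 50 on the opposite strand. Of the 10 higher loci, 6 were among the 50 and 4 among the 292, whereas 5 of the 6 lower loci were among the 292. By this inferred strand, the higher loci were thus mostly opposite-strand loci, although these were the fewer. In 323 of the 342 loci (94.4%) RF lay within 2-fold of AL, against 96.2% of the 11485. Of the 24 antisense loci at least 2-fold higher in FA than in AL, 16 (66.7%) were within 2-fold of AL in RF, against 68.5% of 410 such loci in all. For loci at least 2-fold lower in FA these counts were 8 of 10, against 74.1% of 382. The shares that lay near AL again were thus close to those of all loci. The 6 lower loci included those of Lss, Mid1ip1 and Mlxipl, Gm42604 inside the matrix protein gene Fras1, at 1.201, 0.520 and 1.57, and Rab26os, at 2.91, 1.35 and 2.95, which overlaps no coding gene.

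The 10 higher loci included both coding-strand loci of Gm14097, Sox6os and Gm13185. Gm28513, which overlaps Rgs16, an inhibitor of G protein signalling, was at 0.257 in AL, 1.71 in FA and 0.665 in RF. Gm11844 was at 4.24, 9.14 and 4.55 on the strand of the calcium-binding protein gene Necab1, which stood at 15.2 and 13.6 in AL and FA. Gm14703 was at 0.630, 1.62 and 0.474 on the strand of the synaptic vesicle gene Syp. Gm15864, inside Eva1a, was at 0.374, 1.46 and 0.633. On the strand opposite 4930480G23Rik, which overlaps no coding gene, a locus was at 0.682, 1.99 and 0.836, and the locus of 2900089D17Rik on the strand of Bri3 was at 0.307, 0.762 and 0.253. In these members, 7 of the 10 stood under 2 FPKM in FA, while a locus of Gm14097 stood at 17.6 and Gm11844 at 9.14. Of the 6 lower ones, 2, over Mid1ip1 and Mlxipl, stood above 9 in both fed groups.

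**Figure D4:**
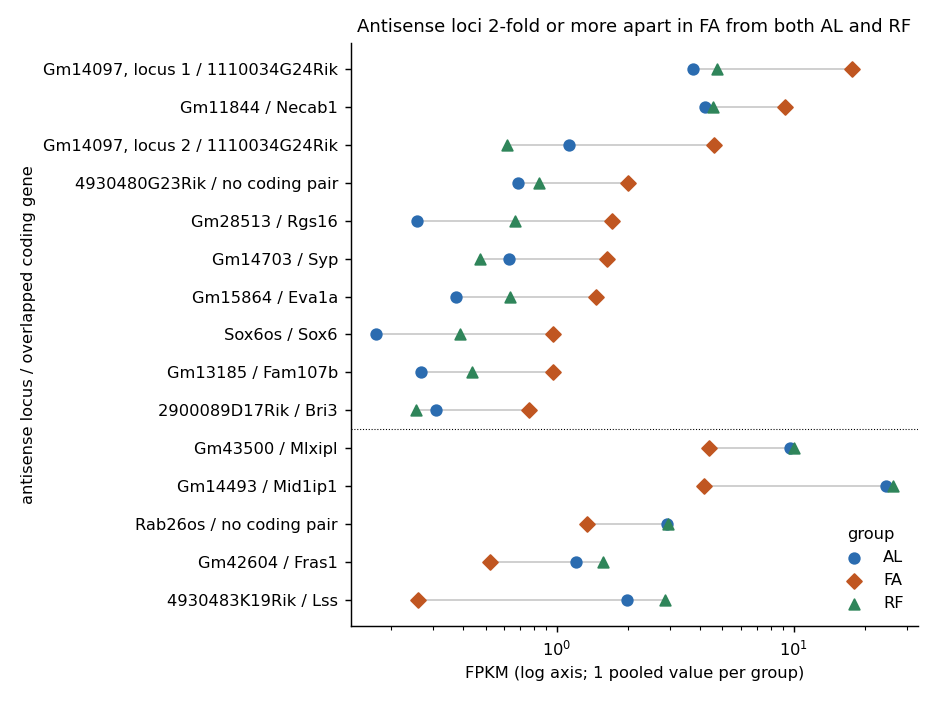
FPKM (log axis) in AL, FA and RF of 15 of the 16 antisense loci with matching FA values that were 2-fold or more apart in FA from both other groups, with the overlapped coding gene. The 10 loci above the dotted line were highest in FA, and of the 5 below it, Gm14493 stood at 24.4 in AL, 4.17 in FA and 26.2 in RF.

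One locus was left out of the ratios. A locus of 4732471J01Rik, which spans the hormone-sensitive lipase gene Lipe and others, was listed at 0 in AL, 61.7 in FA and 0 in RF. A second locus of the same gene on the same strand was at 1.45 in AL and 1.57 in FA.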

How the data were processed

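Livers of AL, FA and RF mice were measured by total RNA-sequencing, 4 libraries per group. The authors removed ribosomal reads with Bowtie2 2.2.9, aligned to GRCm38 (mm10) with STAR 2.6.0c, assembled transcripts with Ensembl release 90 and obtained values with Cufflinks 2.2.1 and Cuffdiff. The deposited FPKM values are 1 pooled value per group and locus, or per transcript for FA against RF. Deposited fold changes, test statistics, p-values and q-values of the authors' own comparisons were not used, only the software's mark of whether a locus could be compared.

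Python 3.11.15 with pandas 2.3.3 was used. Ratios were taken without a pseudocount for comparable loci with a mean of 0.5 FPKM or more and values above 0 in both groups, and 2-fold was the threshold. Pairs overlapped by 1 base or more of gene span, and the coding value was that of its annotated-strand locus with the highest mean. Exons came from GENCODE M21, which held 3738 of 3750 genes looked up. Named loci were drawn from the 10 highest and 10 lowest ratios per comparison at 1 FPKM or more, and from the 10 most abundant. They also came from pairs 2-fold apart in opposite ways and the 10 pairs per comparison with the largest difference. Pairs of the listed genes and loci apart in FA from both groups completed the rules. Not all loci that met these rules are given, and those left out include pairs with a large difference. Other values were chosen after they were seen. Results of a few pairs are not reported here. Members and lists were chosen with earlier results of these data known. No test fits 1 value per group; the ratio calculations were tested on simulated data. Alternative floors, pseudocounts, folds, strands, overlaps and FA agreements were tried.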

Additional observations from a re-analysis of the deposited data

How the results depend on the processing

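With 1 pooled value per group, no library could be left out. No paired analysis was possible because the columns carry no replicate numbers. Of 108 alternatives planned for 14 results, 74 stayed within 1.5 times of the value reported, and none reversed. No pair with both members 2-fold apart in opposite ways between FA and AL appeared under any alternative tried. Loci higher in FA than AL numbered 20 at a floor of 1 FPKM, and higher and lower loci 54 and 33 with no floor, 13 and 8 with a pseudocount of 1, and 80 and 47 at 1.5-fold. Loci lower in RF than FA numbered 17 at a floor of 1, and higher and lower loci 30 and 49 with no floor, 6 and 6 with a pseudocount of 1, and 39 and 57 at 1.5-fold. Same-way pairs between FA and AL were 13 with a pseudocount of 1, 46 at 1.5-fold, and 4 among pairs without exon overlap, an alternative chosen after seeing the data. Between RF and FA, same-way pairs were 6 with no floor, 10 at 1.5-fold, 0 with matching FA values and 1 without exon overlap, and opposite-way pairs were 0 at a floor of 1, 3 with no floor, 0 with a pseudocount of 1, 2 at 1.5-fold and 0 with matching FA values. The Spearman correlation between RF and FA ratios was 0.54 at a floor of 1, 0.74 with matching FA values and 0.083 without exon overlap. Medians of log2 ratios were 0.043 for FA/AL with a pseudocount of 1, and -0.016 and -0.035 for RF/FA at a floor of 1 and with a pseudocount of 1. Loci highest in FA of the 3 groups numbered 23 at 1.5-fold, 5 at a floor of 1, 16 with no floor and 4 on the annotated strand alone, chosen after seeing the data, and those lowest in FA 10 at 1.5-fold and 10 with no floor. The causes were not tested, except that a lower floor admits more loci by construction.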
